A study of Mus musculus with 2 samples.

Results

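The genes described here are 10 components of erythropoietin receptor and KIT signalling, taken by gene symbol: the receptors Epor and Kit, the kinases Jak2, Lyn and Pim1, the transcription factors Stat5a and Stat5b, the phosphatases Ptpn6 and Ptpn11, and the adaptor Sh2b3. All 10 were found among the 43346 annotated gene entries of the deposited tables. The RNA came from G1E, an immortalised mouse line that the labels give as a Gata1- erythroid progenitor, male and of postnatal origin, with no treatment named. G1E cells lack the function of GATA1, the factor that carries red cell precursors into maturation. Gata1 RNA was at 48.0 and 46.6 TPM in replicates 1 and 2, from 4694 and 5771 expected counts, and these gene-level values do not show whether it encodes a working protein. The data were 2 libraries of polyadenylated RNA, replicate 1 and replicate 2, of 61982634 and 80658648 expected counts, and they formed 1 group. Both cite the same cell sample, so the spread between them may be technical, and with no second condition the values are levels and ratios within a library.

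Erythropoietin binds a pair of EPOR chains that carry the kinase JAK2, and JAK2 then phosphorylates the receptor and the transcription factors STAT5A and STAT5B, which enter the nucleus and switch on survival genes. KIT, the receptor for stem cell factor, is itself a tyrosine kinase and sustains proliferation of progenitors before and alongside EPOR. LYN, a SRC-family kinase, attaches to both receptors, while the phosphatase SHP-1 (Ptpn6) and the adaptor LNK (Sh2b3) dampen them and the phosphatase SHP-2 (Ptpn11) carries signals on to the RAS pathway.

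Levels are in TPM, which divides a gene's counts by its effective length and scales each library to the same total, so that genes can be compared within a library. All 10 genes were at 1 TPM or more in both libraries, against 40.0% of all protein-coding genes. Of the 10 genes, 9 reached 10 TPM or more in both libraries, against 60.9% of protein-coding genes at 1 TPM or more, and 4 reached 100 TPM or more in both, against 13.9%. The exception at 10 TPM was Jak2. In order of mean TPM the genes ran Stat5a, Pim1, Sh2b3, Epor, Kit, Ptpn6, Stat5b, Lyn, Ptpn11 and Jak2. The ranges of the libraries did not overlap between Stat5a and Pim1, nor at any step from Stat5b through Lyn and Ptpn11 to Jak2. Between Pim1 and Stat5b each gene overlapped the next in the order, so the order of neighbours there lies within the spread of the libraries. Genes further apart in that stretch could be separate: Pim1, at 148 and 121 TPM, lay above Epor, at 103 and 117. Pim1, Epor, Kit and Stat5b kept this order in both libraries, while Sh2b3 and Ptpn6 changed place.

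The order also depended on which transcripts were counted. A transcript is called complete coding here where GENCODE M21 annotates it as protein-coding with both ends of its coding sequence present. With only such transcripts the order became Pim1, Stat5a, Epor, Kit, Stat5b, Ptpn6, Ptpn11, Sh2b3, Jak2 and Lyn. Sh2b3 moved from the third to the eighth place and Lyn from the eighth to the last. The 10 genes hold 45 annotated transcripts, of which 23 are complete coding.

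**Figure D1:**
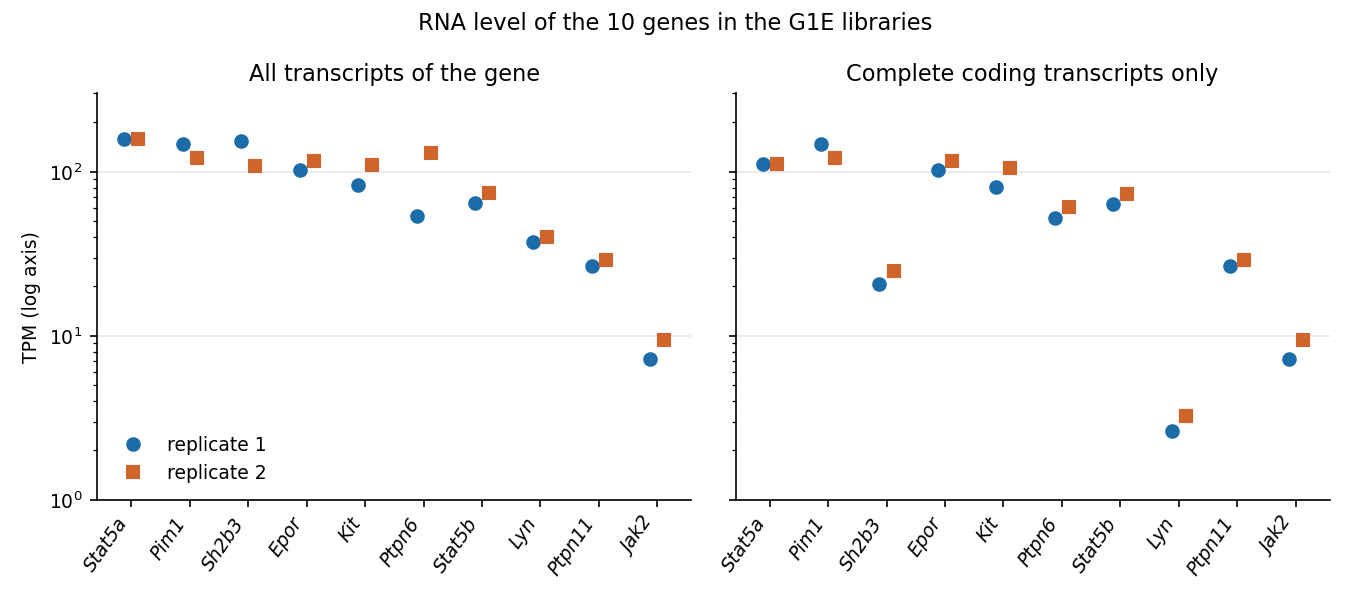
RNA level of each gene in TPM on a log axis, with circles for replicate 1 and squares for replicate 2, counting all transcripts (left) or complete coding transcripts only (right); genes are in the order of mean TPM over all transcripts. Sh2b3 and Lyn stand far lower on the right, at 20.6 and 24.7 TPM and at 2.61 and 3.26 TPM, and the spread of Ptpn6 is smaller there.

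Both receptors were expressed at near 100 TPM. Epor (ENSMUSG00000006235.5, minus strand of chromosome 9 from 21958897 to 21963506 in mm10) was at 103 and 117 TPM in replicates 1 and 2, a mean of 109.7 ± 10.2 (SD, n = 2), from 9649 and 13902 expected counts. Kit (ENSMUSG00000005672.8, plus strand of chromosome 5 from 75574916 to 75656722) was at 83.3 and 110.1 TPM, a mean of 96.7 ± 18.9 (SD, n = 2), from 23045 and 38163 counts. Epor was the higher of the pair in both libraries, by 1.23-fold and 1.06-fold, a log2 ratio of 0.19 ± 0.15 (SD, n = 2). That difference between the receptors is little larger than its spread, and the ranges of the 2 genes overlap. In counts Kit exceeded Epor in both libraries, over a deposited transcript length of 5214 bases for Kit-201 against 1829 for Epor.

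Epor has a single transcript in the deposited annotation, so its level involves no division between forms. The 250 bases before its RefSeq start site, chr9:21963577-21963826 on the minus strand of GRCm38.p6, are shown because the line is defined by the loss of a GATA factor; capitals mark the only match to a GATA motif.
Epor upstream: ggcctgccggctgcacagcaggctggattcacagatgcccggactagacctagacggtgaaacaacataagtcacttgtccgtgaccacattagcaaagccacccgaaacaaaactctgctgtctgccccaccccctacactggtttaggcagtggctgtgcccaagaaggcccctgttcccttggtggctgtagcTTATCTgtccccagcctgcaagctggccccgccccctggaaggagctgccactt
The motif was searched as AGATAA or AGATAG, or with TGATAA or else TGATAG, on both strands from 250 bases before to 50 after each start; the capitals are AGATAA on the opposite strand. Among 32851 such promoter windows of all genes, 29.8% held at least 1 match. RefSeq windows were present for 9 of the 10 genes, and 2 of the 9, Epor and Ptpn11, held a match. The STAT-type motif TTCNNNGAA was in none of the 13 windows of these genes, Pim1 included, and in 8.30% of all windows. A match or its absence describes the letters in the window only.

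Kit RNA was mostly assigned to the form with a short insert beside the membrane. Kit-201 holds 12 coding bases (chromosome 5 from 75639147 to 75639158) that Kit-204 lacks, in the extracellular part of the receptor. They are shown in capitals within 30 bases of flanking coding sequence on each side.
Kit-201: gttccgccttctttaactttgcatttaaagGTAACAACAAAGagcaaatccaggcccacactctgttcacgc
Kit-204: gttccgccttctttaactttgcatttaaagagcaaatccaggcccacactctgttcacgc
Kit-201 took 91.8% of the gene's TPM in replicate 1 and 88.5% in replicate 2, and Kit-204 took 5.60% and 7.90%. The deposited posterior means, a second estimate from the same reads, gave Kit-204 more, 12.8% and 18.2%. Kit-204 also starts 39 bases upstream of Kit-201, so the tables do not show which of the 2 features the reads followed.

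The ligands were not transcribed at a detectable level. Epo and Kitl, which encode erythropoietin and stem cell factor, had 0 counts in both libraries. A count of 0 allows up to 3 counts, or 0.0484 CPM in replicate 1 and 0.0372 in replicate 2, for counting error only.

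Jak2, the kinase that EPOR needs, had the lowest level of the 10 genes by TPM over all transcripts. Jak2 (ENSMUSG00000024789.8, plus strand of chromosome 19 from 29251828 to 29313080) was at 7.19 and 9.45 TPM, a mean of 8.32 ± 1.60 (SD, n = 2), from 1963 and 3262 counts. All of it was assigned to the 25-exon transcript Jak2-202. It stood at percentile 31.6 of protein-coding genes at 1 TPM or more, while Stat5a, the highest of the 10, stood at 90.5. The other JAK kinases were higher in both libraries: Jak1 at 259 ± 2.11 TPM, Jak3 at 71.0 ± 2.22 and Tyk2 at 17.6 ± 1.41 (SD, n = 2). Jak2 therefore made up 2.34% ± 0.458 of the TPM of the 4 JAK genes.

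The lead of Jak1 was lost on complete coding transcripts, while Jak2 kept its low place. Complete coding transcripts of Jak1 held 17.0 and 20.01 TPM, those of Jak3 66.1 and 62.2, those of Tyk2 16.6 and 18.6, and Jak2 stayed the lowest of the 4 at 7.19 and 9.45. On that scale Jak2 made up 7.65% ± 1.30 of the family (SD, n = 2). The leading transcript of Jak2 had a GC content of 44.3%, below those of Tyk2 (57.0%), Jak3 (60.2%) and Jak1 (60.3%), and the lowest 10% of protein-coding genes at 1 TPM or more lay under 43.6%. These GC values belong to leading transcripts, while 6.55% and 7.79% of the TPM of Jak1 was on complete coding ones. The part of GC content in the level of Jak2 was not tested.

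Lyn stood above Jak2 by gene TPM and below it by complete coding transcripts. Lyn (ENSMUSG00000042228.10, plus strand of chromosome 4 from 3678115 to 3813122) was at 37.5 and 40.2 TPM, a mean of 38.8 ± 1.90 (SD, n = 2), from 1542 and 2167 counts. The ratio of Lyn to Jak2 was 5.22-fold and 4.25-fold, a log2 ratio of 2.24 ± 0.21. A 2-exon transcript with no coding sequence, Lyn-204, took 93.0% and 91.9% of that TPM. It is 687 bases long against 3463 for the full transcript Lyn-201, and it held 68.6% and 65.0% of the gene's counts.

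Lyn-204 starts 15 bases downstream of Lyn-201 and reads on past the end of the second exon into the intron, where 315 of its bases lie in no exon of Lyn-201. Complete coding Lyn transcripts held 2.61 and 3.26 TPM, a mean of 2.94 ± 0.460 (SD, n = 2). On that scale Lyn was 0.363-fold and 0.345-fold the level of Jak2, a log2 ratio of -1.499 ± 0.05. With counts divided by the longest complete coding transcript of each gene the log2 ratio was 0.07 ± 0.17 (SD, n = 2). It was 0.19 in replicate 1 and -0.05 in replicate 2, so its sign differed between the libraries. The order of the pair therefore depended on which transcripts were counted.

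Counts for the coding transcripts of Lyn were low. Lyn-201 was given 484 expected counts in replicate 1 and 580 in replicate 2, and Lyn-202 was given 0 and 178. Lyn-202 was thus assigned reads in replicate 2 only, and at these counts its share is not settled. Among the 8 SRC-family genes Fyn was highest at 88.6 ± 2.05 TPM, with Yes1 at 1.57 ± 0.247 and Lck at 1.59 ± 0.332, while Src, Fgr and Blk were below 1 TPM. Lyn held 29.7% ± 0.579 of the family's TPM over all transcripts and 3.14% ± 0.398 over complete coding ones (SD, n = 2).

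**Figure D2:**
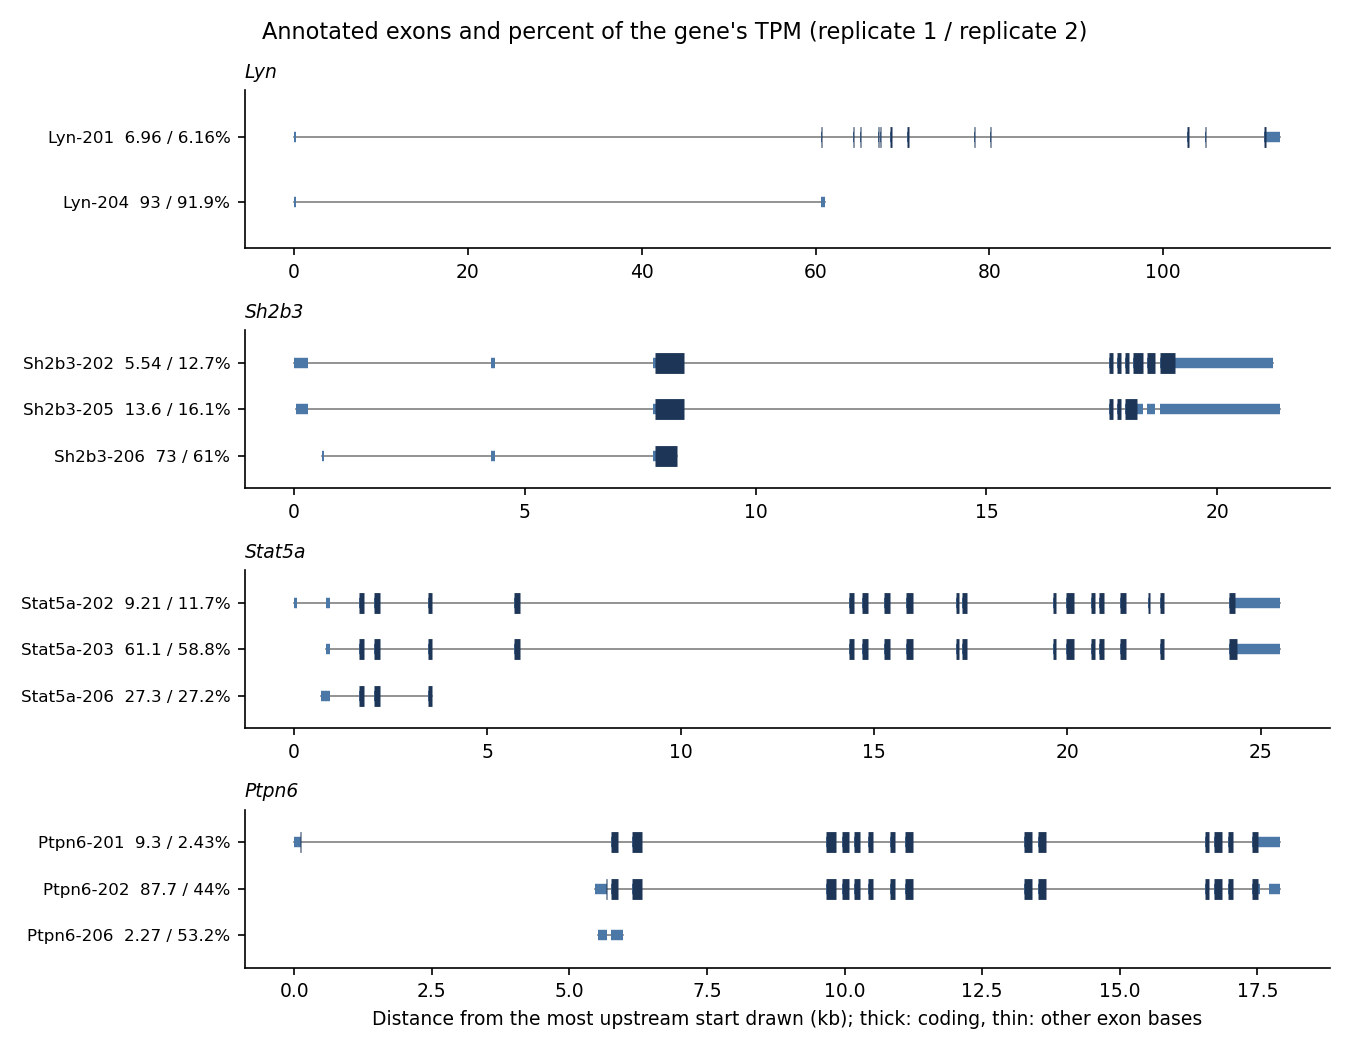
Exon maps of the transcripts between which the TPM of Lyn, Sh2b3, Stat5a and Ptpn6 was divided, by distance in kb from the most upstream start drawn; thick blocks are coding, thinner blocks are other exon bases, and the numbers are the percent of the gene's TPM in replicate 1 and replicate 2. The short transcripts Lyn-204, Sh2b3-206, Stat5a-206 and Ptpn6-206 each lie toward the 5′ end of their gene and lack its 3′ exons.

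The STAT5 pair held the larger part of the TPM of the STAT genes, though not on every scale. Stat5a (ENSMUSG00000004043.10, plus strand of chromosome 11 from 100859351 to 100885169) was the highest of the 10 genes at 158.7 and 158.3 TPM, a mean of 158.5 ± 0.233 (SD, n = 2). Stat5b (ENSMUSG00000020919.7, minus strand of chromosome 11 from 100780731 to 100850724) was at 64.9 and 74.2 TPM, a mean of 69.6 ± 6.62. Together they held 65.6% and 60.6% of the TPM of the 7 STAT genes. Next came Stat6, which serves interleukin 4, at 67.6 ± 4.07 and Stat3, which serves the interleukin 6 family, at 51.9 ± 16.8. Stat2 was at 6.23 ± 0.502 and Stat4 had 1 count in replicate 1 and 0 in replicate 2. On complete coding transcripts the STAT5 share was 73.6% and 68.7%. With counts divided by the length of each gene's leading transcript it was 47.6% and 43.4%, so that on this scale STAT5 was not the larger part. Division by the longest complete coding transcript instead gave 74.6% and 70.4%.

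Stat5a exceeded Stat5b in both libraries, by 2.45-fold and 2.13-fold, a log2 ratio of 1.19 ± 0.14 (SD, n = 2). With complete coding transcripts the excess was 1.75-fold and 1.52-fold, a log2 ratio of 0.71 ± 0.14. The paralogues lie back to back, 8626 bases apart, and their coding sequences are alike at 84.7% of aligned positions. Of the 50-base windows of Stat5a-203, 17.1% occur without mismatch in Stat5b-201, and the longest shared run is 324 bases. They were the only pair of the 10 genes with shared reads to divide: the deposited posterior SD of the count was 30.2 for each in replicate 1 and 34.6 in replicate 2, out of 23570 and 29827 counts for Stat5a, and below 1 for the other genes. The division between the paralogues thus added little to the uncertainty that the deposited model reports.

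Within Stat5a, most TPM went to transcripts that start at the downstream first exon. Transcripts starting there or further downstream took 90.6% and 88.2%, and those from the upstream exon took 9.37% and 11.8%. The leading form, Stat5a-203, took 61.1% and 58.8%, the short 4-exon Stat5a-206, whose coding sequence is incomplete, 27.3% and 27.2%, and the upstream form Stat5a-202 took 9.21% and 11.7%. Stat5a-203 lacks a coding exon of 52 bases (chromosome 11 from 100881738 to 100881789) near the end of the coding sequence, shown in capitals. Since 52 is no multiple of 3, the annotated reading frame differs after it.
Stat5a-202: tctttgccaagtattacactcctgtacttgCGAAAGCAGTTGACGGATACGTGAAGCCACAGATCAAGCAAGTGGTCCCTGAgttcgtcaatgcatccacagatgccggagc
Stat5a-203: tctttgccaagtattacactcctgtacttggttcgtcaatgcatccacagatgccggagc
The start and the missing exon come together in Stat5a-203, so its share does not show how often the 52 bases were skipped.

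Ptpn6 was higher than Ptpn11 in both libraries, but its TPM differed widely between them. Ptpn6 (ENSMUSG00000004266.11, minus strand of chromosome 6 from 124720707 to 124738714) was at 54.1 and 130.4 TPM in replicates 1 and 2, a mean of 92.2 ± 54.0 (SD, n = 2), from 6123 and 10017 counts. Ptpn11 (ENSMUSG00000043733.10, minus strand of chromosome 5 from 121130533 to 121191397) was at 26.7 and 29.0 TPM, a mean of 27.8 ± 1.65, from 8138 and 11199 counts. Ptpn6 was thus the higher by 2.03-fold and 4.49-fold, a log2 ratio of 1.59 ± 0.81, whose spread is wide.

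The 2.41-fold gap of Ptpn6 between the libraries sat in a single short transcript. Ptpn6-206, annotated as a retained intron and 371 bases long, had 15.6 expected counts and 1.23 TPM in replicate 1, and 1096 counts and 69.4 TPM in replicate 2. The scaled counts of the whole gene differed by 1.16-fold. Complete coding Ptpn6 transcripts were at 52.4 and 60.7 TPM, and on that scale the ratio to Ptpn11 was 1.97-fold and 2.09-fold, a log2 ratio of 1.02 ± 0.06 (SD, n = 2). The deposited interval of the posterior mean TPM, whose level is not given in the sources used here, ran from 53.5 to 84.2 in replicate 1. In replicate 2 it ran from 125.8 to 164.3. The model itself thus held the gene's TPM uncertain within each library, but the intervals did not overlap. Ptpn6-205 and Ptpn6-211 had 0 counts, with effective lengths of 5.97 and 2.02 bases in replicate 1. The posterior means gave them 4.49% and 13.3% of the gene's TPM in replicate 1, and 2.18% and 6.91% in replicate 2.

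Ptpn6 has a distal first exon, known from epithelial cells, and a proximal one, known from blood cells. The proximal transcript Ptpn6-202 took 5494 and 8397 expected counts and the distal transcript Ptpn6-201 took 607 and 483. Of the gene's counts, the proximal form held 89.7% and 83.8% and the distal form 9.92% and 4.82%. Ptpn6-206, which starts 44 bases downstream of the proximal form, held 0.254% and 10.9%. The distal form also holds 171 bases toward its 3′ end that the proximal form lacks. Its counts therefore do not show how often the distal first exon was used.

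Ptpn11 was divided between forms with and without a short insert. Ptpn11-201 holds 12 coding bases (chromosome 5 from 121144685 to 121144696, minus strand) that Ptpn11-202 lacks, shown in capitals.
Ptpn11-201: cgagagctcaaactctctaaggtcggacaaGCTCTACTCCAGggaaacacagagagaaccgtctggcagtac
Ptpn11-202: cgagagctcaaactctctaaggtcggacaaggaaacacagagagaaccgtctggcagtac
Ptpn11-201 took 75.6% of the TPM in replicate 1 and 67.2% in replicate 2, and Ptpn11-202 took 24.4% and 32.8%. As with Kit, the forms also differ at their ends in M21, here by 68 bases at the 5′ end and 8 at the 3′ end. The deposited length of Ptpn11-201 was 5610 bases against 5535 in M21, so the ends that were quantified for it are not known from M21.

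Sh2b3, whose product LNK restrains JAK2 and KIT, was high by gene TPM and moderate by complete coding transcripts. Sh2b3 (ENSMUSG00000042594.12, minus strand of chromosome 5 from 121815488 to 121837646) was at 154.2 and 107.8 TPM in replicates 1 and 2, a mean of 131 ± 32.8 (SD, n = 2), from 11539 and 13152 counts. The 642-base, 3-exon transcript Sh2b3-206, whose coding sequence is incomplete, took 73.0% and 61.0% of the TPM but 27.1% and 17.5% of the counts. The form annotated as a target of nonsense-mediated decay, Sh2b3-205, took 13.6% and 16.1% of the TPM and 42.4% and 38.8% of the counts. Complete coding transcripts were left with 20.6 and 24.7 TPM, 13.3% and 22.9% of the gene's total.

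In its family of 3 adaptors, Sh2b3 held 73.0% ± 6.59 of the TPM over all transcripts and 32.4% ± 1.00 over complete coding ones (SD, n = 2). Sh2b1 was at 44.4 and 49.97 TPM, all of it complete coding, so it lay below Sh2b3 on the first scale and above it on the second. Sh2b2 was at 0.01 TPM in both libraries.

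**Figure D3:**
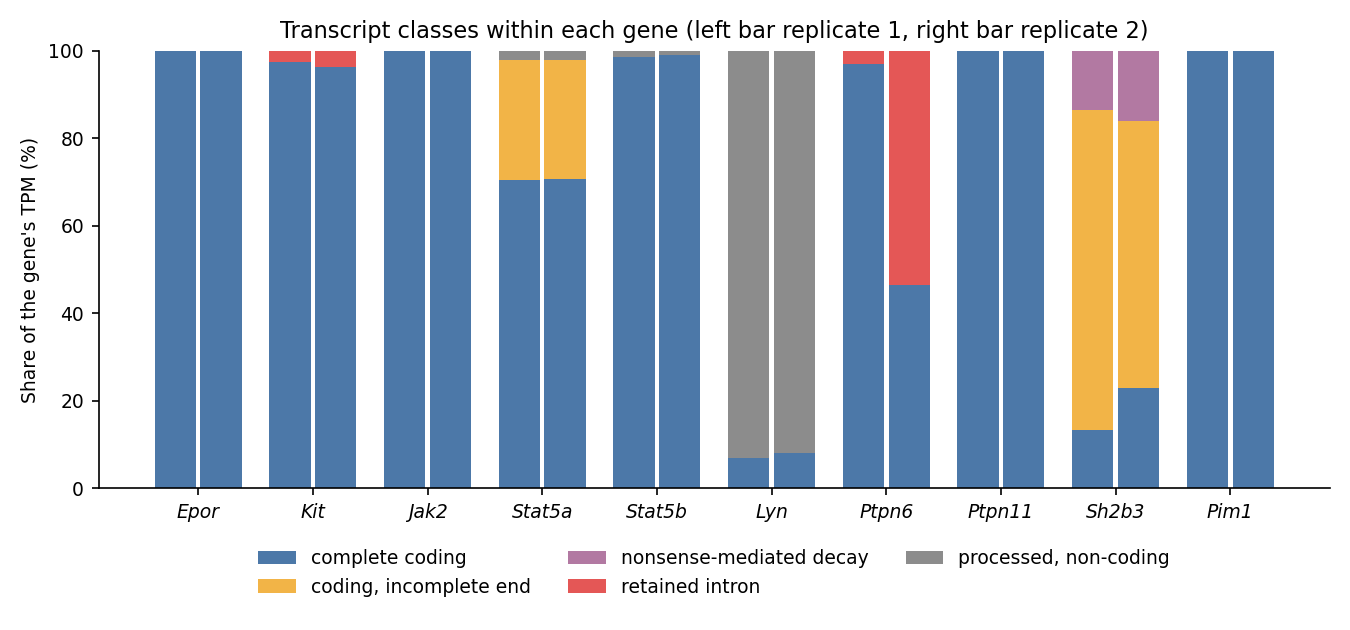
Percent of each gene's TPM assigned to complete coding transcripts, to coding transcripts with an incomplete end, to targets of nonsense-mediated decay, to retained introns and to other non-coding transcripts, with replicate 1 as the left bar and replicate 2 as the right bar. Lyn and Sh2b3 lie below 25% complete coding in both libraries, and Ptpn6 differs between them at 97.0% and 46.6%.

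A low complete coding share in both libraries, under 25%, was thus seen for 2 of the 10 genes, Lyn and Sh2b3, and in 13.2% of protein-coding genes at 1 TPM or more. Under 50% the count was also 2, against 23.3% of such genes. The counts for these 10 genes are near that background.

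Pim1, a serine/threonine kinase gene that STAT5 switches on and that promotes survival, had 148 and 121 TPM in replicates 1 and 2. The mean was 134 ± 19.2 (SD, n = 2), from 20609 and 21278 counts. Pim1 (ENSMUSG00000024014.7, plus strand of chromosome 17 from 29490753 to 29496112) has a single transcript in the deposited annotation. It held 85.9% ± 0.999 of the TPM of the 3 PIM genes, with Pim2 at 16.1 ± 1.34 and Pim3 at 5.92 in both libraries.

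**Figure D4:**
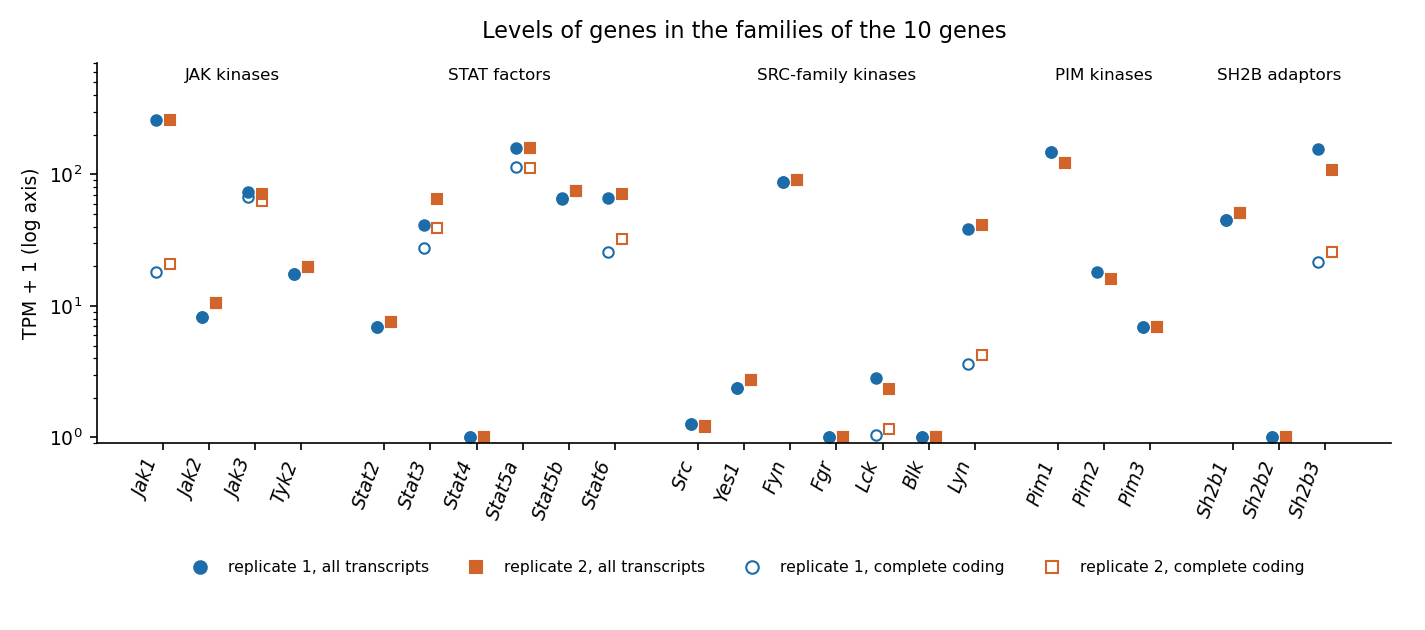
Level of the genes shown of the JAK, STAT, SRC, PIM and SH2B families, as TPM + 1 on a log axis, with circles for replicate 1 and squares for replicate 2; filled symbols count all transcripts and open symbols complete coding ones, with no open symbol for Pim2, whose transcripts mostly have no match in M21. Jak2 is the lowest JAK gene by either count, and Jak1, Lyn and Sh2b3 show wide gaps between filled and open symbols.

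Between the libraries, none of the 10 genes differed by 2-fold or more in scaled counts, against 7.12% of genes with 10 or more counts. The log2 ratio of replicate 2 to replicate 1 ran from -0.45 for Pim1 to 0.23 for Jak2, with 5 genes higher in replicate 2 and 5 lower. In TPM, Ptpn6 was past 2-fold, against 4.93% of protein-coding genes at 1 TPM or more. The effective length of Ptpn6 was 2028 bases in replicate 1 and 1087 in replicate 2, and that of Sh2b3 was 1340 and 1725. These counts rest on at most 1 gene and do not set the 10 apart. Annotated genes on the opposite strand overlap 5 of the 10 genes, namely Stat5a, Lyn, Ptpn6, Sh2b3 and Pim1, and whether the counting used strand is not given in the sources used here.

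**Figure D5:**
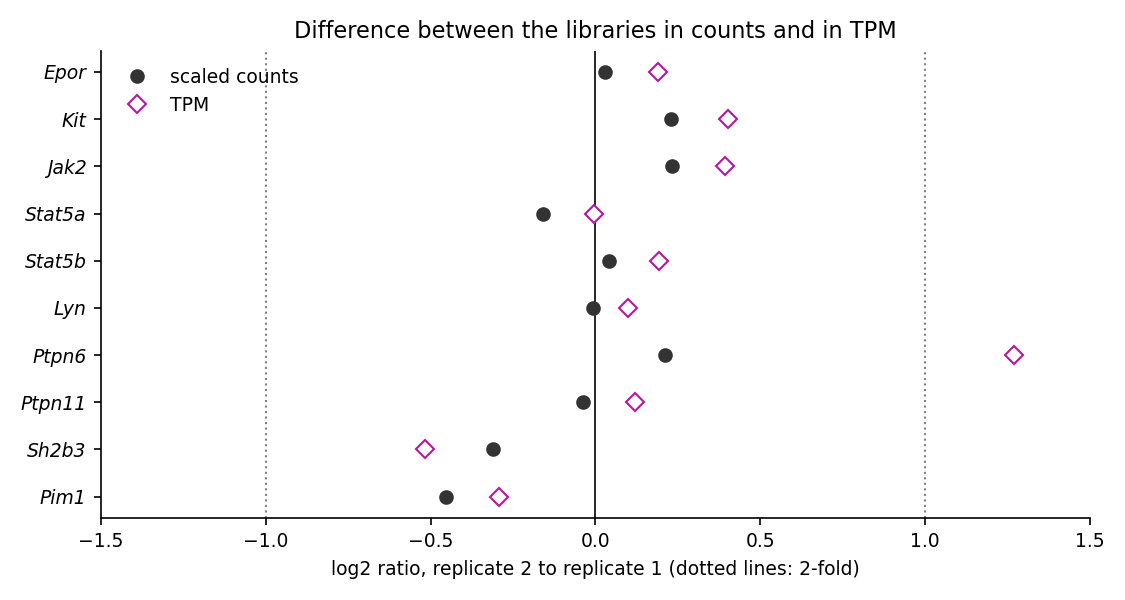
log2 ratio of replicate 2 to replicate 1 for each gene, in scaled counts (filled circles) and in TPM (open diamonds), with dotted lines at 2-fold. Counts lie between -0.45 and 0.23, and the TPM of Ptpn6 alone passes the line, at 1.27.

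The receptors stood nearly alone in their families. Of the other type III receptor tyrosine kinases, Pdgfra had 0 counts in both libraries, Flt3 had 0 and 1, and Csf1r was at 0.01 TPM in each. Of the other homodimeric cytokine receptors, Ghr and Prlr were at 0 TPM, and Csf3r, the G-CSF receptor, was at 0.02 TPM in each library. Each of these lists had 1 gene, Kit or Epor, at 1 TPM or more.

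Downstream of the receptors, most signal carriers were present. Of 24 adaptors and effectors 22 were at 1 TPM or more in both libraries, against 40.0% of all protein-coding genes. The middle of the list lay at 19.3 and 15.6 TPM (medians), against 17.0 and 19.0 over all protein-coding genes at 1 TPM or more in both. The adaptor Grb2 was at 225 ± 16.9 TPM, the docking protein gene Irs2 at 114 ± 7.57, Shc1 at 114 ± 6.97 and the kinase Akt1 at 485 ± 27.2 (SD, n = 2). Complete coding transcripts of Shc1 held 30.1 and 30.5 TPM, 27.5% and 25.5% of that gene's total. The docking protein genes Gab1 and Gab2 were at 2.83 ± 0.170 and 8.15 ± 2.92. Among the PI 3-kinase catalytic subunits Pik3cd was highest at 38.5 ± 3.04, and Pik3cb was at 0.770 and 0.980. Plcg1 was at 4.65 ± 0.643, while its relative Plcg2 had 2 counts in replicate 1 and 1 in replicate 2.

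Of 17 brakes and turnover genes, 14 were at 1 TPM or more in both libraries, against 40.0% of all protein-coding genes. Highest by gene TPM were the STAT5-induced inhibitor genes Cish at 154 ± 1.60 TPM and Socs2 at 142 ± 8.34, and the phosphatase gene Ptpn18 at 145 ± 36.9 (SD, n = 2). Inpp5d, the lipid phosphatase SHIP-1, was at 119 ± 5.20 TPM, Spred2 at 84.7 ± 11.1, Ptpn1 at 39.7 ± 1.83 and Socs1 at 37.0 ± 9.13 (SD, n = 2), whereas Socs3 was at 2.67 ± 0.311. On complete coding transcripts Cish was at 36.7 and 47.05 TPM and Socs2 at 45.65 and 46.6, both below Ptpn18, Inpp5d and Spred2. The ubiquitin ligase genes Cbl and Cblb were at 9.03 ± 0.721 and 2.65 ± 0.997. Ptprc, which encodes the leukocyte phosphatase CD45, had 0 counts in both libraries, and Dusp6, a feedback phosphatase of ERK, had 1 and 2 counts. Of 12 genes listed as STAT5 targets, 11 were at 1 TPM or more, against the same 40.0%, the exception being Erfe at 0.930 and 0.780. Cish, Socs2 and Pim1 belong to that list too. Its other members at 100 TPM or more in both libraries were Ccnd2, the cyclin D2 gene, at 206 ± 58.2 and Id1 at 109 ± 1.73 (SD, n = 2). The survival gene Bcl2l1 was at 73.3 ± 14.7 and the cytokine gene Osm at 4.23 ± 0.332. These lists were written with earlier results of these libraries known and support no direction.

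Markers of the labelled cell type ranged widely in level. Of 12 erythroid markers 10 were at 1 TPM or more in both libraries, against 40.0% of all protein-coding genes. Their summed levels were 4647 and 5201 TPM, most of it from the alpha-globin gene Hba-a1 at 3881 and 4446. Hba-a1 and the beta-globin gene Hbb-bs, at 173 ± 21.3 TPM (SD, n = 2), have near-identical copies, so their values are uncertain. Complete coding transcripts of Hba-a1 held only 64.4 and 37.0 TPM, and those of Hbb-bs 0.950 and 0.250. The transcription factor genes Tal1 and Klf1 were at 246 ± 10.9 and 221 ± 38.6. The membrane protein genes Ermap, Rhd and Slc4a1 were at 53.6 ± 11.7, 3.10 ± 0.297 and 2.60 ± 0.424, and the transferrin receptor gene Tfrc was at 3.42 and 13.8. Complete coding Tfrc transcripts were at 3.29 and 5.40 TPM, and the log2 ratio of its scaled counts, replicate 2 to replicate 1, was 0.65. The 2 markers short of the minimum were Epb42, at 0.970 and 1.07, and Alas2, at 0.290 and 0.580. Mast cells also carry KIT and LYN: of their 8 markers 2 were at 1 TPM or more, Cpa3 at 3.37 ± 0.0636 and Hdc at 2.36 ± 0.410, with summed levels of 5.44 and 6.13 TPM, while Fcer1a, Mcpt4 and Mrgprb2 were at 0 TPM. Megakaryocyte markers were at that level for 5 of 8, with summed levels of 73.9 and 82.1 TPM, neutrophil and monocyte markers for 2 of 8, at 4.61 and 5.65, and lymphocyte markers for 1 of 6, at 1.85 and 1.39.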

How the data were processed

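The deposited tables were used for 2 libraries of polyadenylated RNA, each quantified alone from a transcriptome alignment on mm10 with GENCODE annotation M4, per the file headers and the deposited descriptions. No source used here names the aligner or the counter. Expected counts, as deposited, are estimates and can be fractional. TPM, also deposited, divides them by effective length and has the same total in each library, and the authors' percent values give each transcript's part of its gene's TPM. The authors' interval bounds, a signal per gene in TPM units, belong to the posterior mean TPM.

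Symbols, transcript types and positions came from GENCODE M21 on the same assembly, matched by identifier without version for 42462 of 43346 entries. Lengths of 41 of the 45 transcripts were equal in both releases. Counts were rounded and scaled with TMM (edgeR 4.0.16, R 4.3.3, factors 0.960 and 1.04) over genes with 10 or more counts in a library, and a 0 was set to 3 for a ratio. Genes with under 80% of TPM on transcripts found in M21 got no complete coding value. Sequence came from M21 transcripts and RefSeq promoters (GRCm38.p6). Other tools were Python 3.11.15, pandas 2.3.3, NumPy 2.4.6, Biopython 1.88 and matplotlib 3.10.9.

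With 1 group nothing was tested, and n = 2 limits every SD. Named were the 10 genes, the listed genes and transcripts with a mean of 5% or more. Further transcripts, and the forms Lyn-202 and those at or near 0, were named after their values were seen. The genes and lists were chosen with earlier results of these data known. A few listed genes and 1 pair of transcript sequences are not reported here.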

Additional observations from a re-analysis of the deposited data

How the results depend on the processing

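No paired analysis was possible because the libraries form a single group. Without replicate 1 or replicate 2 the log2 ratios ran from 0.09 to 0.30 for Epor to Kit, 1.09 to 1.29 for Stat5a to Stat5b, 1.02 to 2.17 for Ptpn6 to Ptpn11 and 2.09 to 2.38 for Lyn to Jak2. All 10 genes stayed at 1 TPM or more in each library, with a minimum of 0.5 TPM and with posterior mean TPM, and 9 reached 10 TPM. No gene was past 2-fold with DESeq2 1.42.0 size factors, with no minimum count or with a pseudocount of 10. Over all genes tested the shares were 7.03%, 22.5% and 3.90%, in that order. None was past 1.5-fold, against 19.0% of all genes tested. In deposited TPM 1 was past 2-fold, against 9.96% of genes with 10 or more counts in a library and some TPM in both. On that scale the median log2 ratio of all genes was 0.15, against 0.01 in scaled counts. With counts per base of the leading transcript, the Stat5a to Stat5b log2 ratio was 0.81, and the family shares were 1.73% for Jak2, 45.5% for STAT5, no longer the larger part of its family, 38.7% for Lyn, 87.1% for Pim1 and 87.1% for Sh2b3. A pseudocount of 1 TPM put Lyn at 28.7%. The next settings were chosen after seeing the data. With complete coding transcripts only, the log2 ratio of Lyn to Jak2 reversed to -1.499 and that of Stat5a to Stat5b was 0.71, with shares of 7.65% for Jak2, 71.1% for STAT5, 3.14% for Lyn and 32.4% for Sh2b3. With counts per base of the longest complete coding transcript, these were 0.069, 0.75, 6.65%, 72.5%, 11.4% and 50.9%. Neither gave a value for PIM kinases, since Pim2 has too few matched transcripts. These settings differ in the transcripts or the length by which counts are divided. Posterior means moved the level of 1 of 10 genes and the leading transcript's share of 2 by more than 1 SD.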
